A study of Ictidomys tridecemlineatus with 10 samples.

Results

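The genes of autophagy and autophagosome transport described here were taken from the table by symbol: every name beginning with Atg and a number, with Map1lc3 or with Gabarap, and a set of named partners in initiation, cargo binding, transport and fusion. This matched 43 rows of 25964. Of these, 42 averaged at least 1 CPM (reads scaled to library size) over the 10 libraries, out of 15445 genes at that level, and these 42 are the members. The level that chose them ignores state. The lowest member was Tfeb, with a mean of 1.98 CPM. The row left out was Map1lc3c, an LC3 gene, with a mean of 0.285 CPM. Optn and Map1lc3b were not analysed here.

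Autophagy carries cytoplasmic cargo to lysosomes inside double-membraned vesicles, the autophagosomes. A kinase complex starts the process, a lipid kinase marks the growing membrane, and ubiquitin-like conjugation fixes proteins of the LC3 and GABARAP families to it. Adaptors and small GTPases then move the closed vesicle along microtubules and fuse it with late endosomes and lysosomes. In neurons, whose axons lie far from most of their lysosomes, this transport is a known part of the pathway. The roles given here are known from work in yeast, mouse and human cells, not from ground squirrels.

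The data are RNA sequencing of the subfornical organ, a thirst-sensing brain structure outside the blood-brain barrier, cut by hand from brain slices of thirteen-lined ground squirrels. There were 5 libraries from animals in interbout arousal (IBA), a return to normal body temperature between torpor bouts in the hibernation season. The other 5 came from Active animals, which were not hibernating. The series names these as biological replicates, and age and sex are not given in the sources used here. At issue is how transcript levels in the organ differed between the states. IBA libraries held 24195342 to 35382203 reads and Active libraries 20993093 to 30713168, as recovered from the CPM values. In whole-organ RNA, fewer cells of a type and less RNA per cell cannot be told apart.

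Differences are IBA minus Active of log2(CPM + 0.5), a scale that shrinks the differences of low genes, and a call is an adjusted p under 0.05 in limma over all 15445 genes. CPM is not divided by transcript length, so levels are compared between states and not between genes.

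The libraries differed in cell type markers within states. Markers of choroid plexus, 7 of 8 listed, summed to 464 to 2987 CPM in IBA and 538 to 13275 CPM in Active libraries, with Active replicate 4 at the top. Neuron markers, 8 of 8, summed to 1892 to 2763 CPM in IBA and 1603 to 2486 CPM in Active, with higher means in IBA for 7 of 8, a median log2 difference of 0.37 and none called. Oligodendrocyte markers, 6 of 6, summed to 573 to 3152 CPM in IBA and 661 to 1686 CPM in Active, and astrocyte markers, 5 of 6, to 9980 to 13747 CPM in IBA and 6778 to 18572 CPM in Active. Microglia markers, 7 of 8, summed to 181 to 235 CPM in IBA and 127 to 209 CPM in Active. Means were higher in IBA for 5 of these 7 markers, and 2 of them were called higher. None of these markers was at 0 throughout. The part of neuron, oligodendrocyte and microglia content in the results below was not tested.

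Across the 42 members, 1 was called lower in IBA and 1 higher, both of them in autophagosome and endosome transport. The lower one was Fyco1 and the higher one Vps33b. Over all genes tested, 0.401% were called, 0.22% higher and 0.181% lower. The symbols were put together with earlier results of this comparison known, so nothing is read from the share among members. The other 40 members were not called. The median log2 difference over the members was 0.05, against 0.03 over all genes tested. The median size of the difference regardless of sign was 0.19 for members and 0.20 for all genes. In 26 of 42 members the IBA mean lay within 20% of the Active mean.

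**Figure D1:**
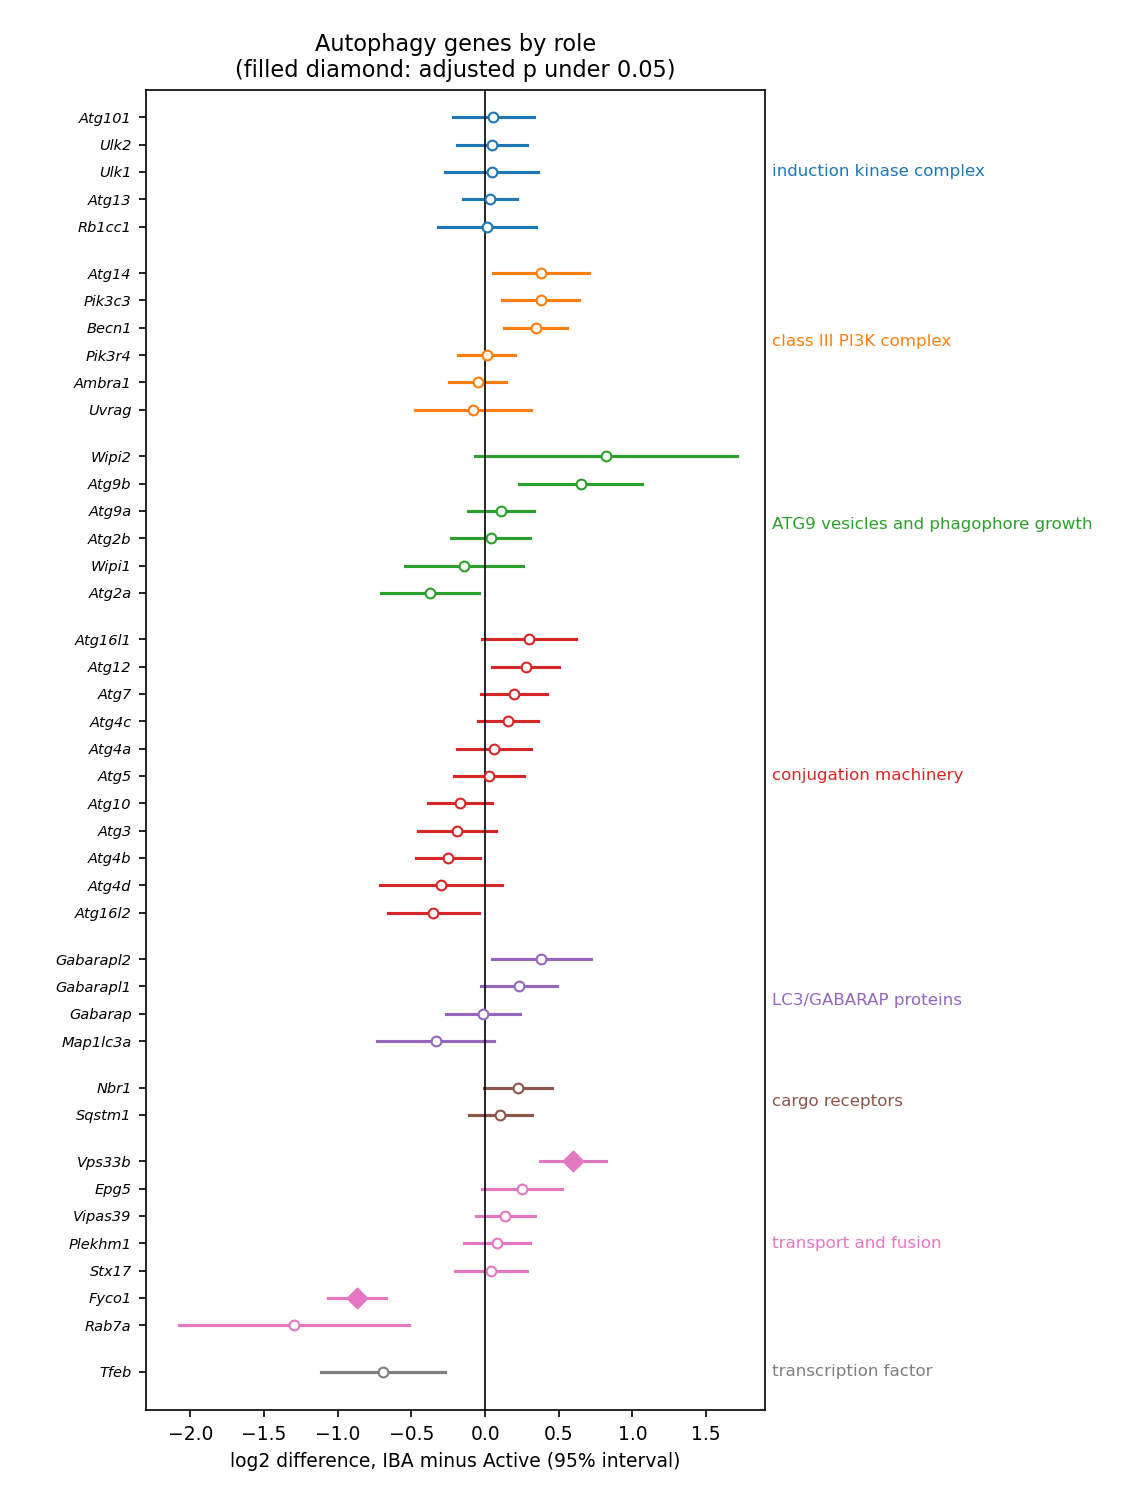
Log2 difference of each of the 42 members, IBA minus Active, with its 95% interval from limma, grouped by role from initiation at the top to transcription at the bottom. Filled diamonds mark the 2 called genes, Vps33b at 0.60 and Fyco1 at -0.87; the 5 genes of the induction complex lie close to 0.

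Fyco1 encodes an adaptor that binds LC3, RAB7 and the lipid PI3P on autophagosomes and late endosomes and links them to kinesin for transport toward microtubule plus ends. Its levels were 50.6, 39.4, 42.7, 46.0 and 43.0 CPM in IBA replicates 1 to 5, against 84.2, 84.8, 76.2, 80.0 and 80.3 CPM in Active replicates 1 to 5. The highest IBA library lay well below the lowest Active library. Fyco1 averaged 44.4 ± 4.23 CPM in IBA and 81.1 ± 3.52 CPM in Active (SD, n = 5 each), and fell by 45.3% relative to the Active mean. The log2 difference was -0.87 (SE 0.09, 95% interval -1.06 to -0.67, adjusted p = 0.00579 in limma). Its unadjusted p of 4.42e-07 ranked 1 among the 15445 genes tested. Each library held at least 986 reads of this gene.

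The lower level of Fyco1 did not rest on one library. With each of the 10 libraries left out in turn it was called 10 times, with differences from -0.92 to -0.83 and adjusted p from 0.00860 to 0.0228 in limma. With the choroid plexus score of each library as a covariate the difference was -0.87. With Active replicates 4 and 5 both left out it was -0.88 and the adjusted p was 0.0528, just past the threshold. The authors' deposited table gave Fyco1 an FDR of 0.0703. In the RefSeq annotation used here for names and neighbours, Fyco1 overlaps Cxcr6, a chemokine receptor gene. The build and strand used for counting are not given in the sources used here. Cxcr6 was at 1.76 ± 0.524 CPM in IBA and 2.19 ± 0.440 CPM in Active (SD, n = 5 each). Its part in the Fyco1 result was not tested.

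Vps33b encodes a Sec1/Munc18 protein that controls membrane fusion and works with the product of Vipas39 in a complex of endosomal sorting. Vps33b was at 102.3, 98.5, 96.0, 100.9 and 86.6 CPM in IBA replicates 1 to 5, against 74.4, 67.7, 64.2, 61.4 and 52.5 CPM in Active replicates 1 to 5. Every IBA library was above every Active library. It averaged 96.9 ± 6.22 CPM in IBA and 64.0 ± 8.07 CPM in Active (SD, n = 5 each), with a log2 difference of 0.60 (SE 0.10, 95% interval 0.38 to 0.82, adjusted p = 0.0347 in limma). The authors' deposited table gave it an FDR of 0.0524, the lowest among the members, none of which was under 0.05 there. The pseudogene LOC101970135, which overlaps Vps33b in the reference annotation, was at 0.0359 to 0.399 CPM in IBA and 0 to 0.251 CPM in Active.

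The call of Vps33b lay near the threshold, while its direction was the same in each fit below. The call was kept without IBA replicate 5 (adjusted p = 0.0347 in limma). It was lost without IBA replicate 1, 2, 3 or 4 (adjusted p = 0.0996, 0.0908, 0.0600 and 0.0746) and without Active replicate 1, 2, 3, 4 or 5 (0.0590, 0.0508, 0.0552, 0.0630 and 0.0698). Over these 10 omissions the log2 difference ranged from 0.53 to 0.66. Without Active replicates 4 and 5 together it was 0.49 (limma adjusted p = 0.158).

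Vipas39, the partner of Vps33b, was not called. Its levels were 97.6, 96.2, 95.3, 108.1 and 88.2 CPM in IBA, against 95.9, 94.5, 90.7, 80.7 and 79.7 CPM in Active replicates 1 to 5. The states overlapped, and the log2 difference was 0.14 (95% interval -0.06 to 0.34, adjusted p = 0.384 in limma). The ratio of Vps33b to Vipas39 CPM within a library was 0.934 to 1.05 in IBA and 0.659 to 0.776 in Active. These ranges do not overlap, but Vps33b was singled out for its call, so no test is given, and without lengths the ratio does not count molecules.

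**Figure D2:**
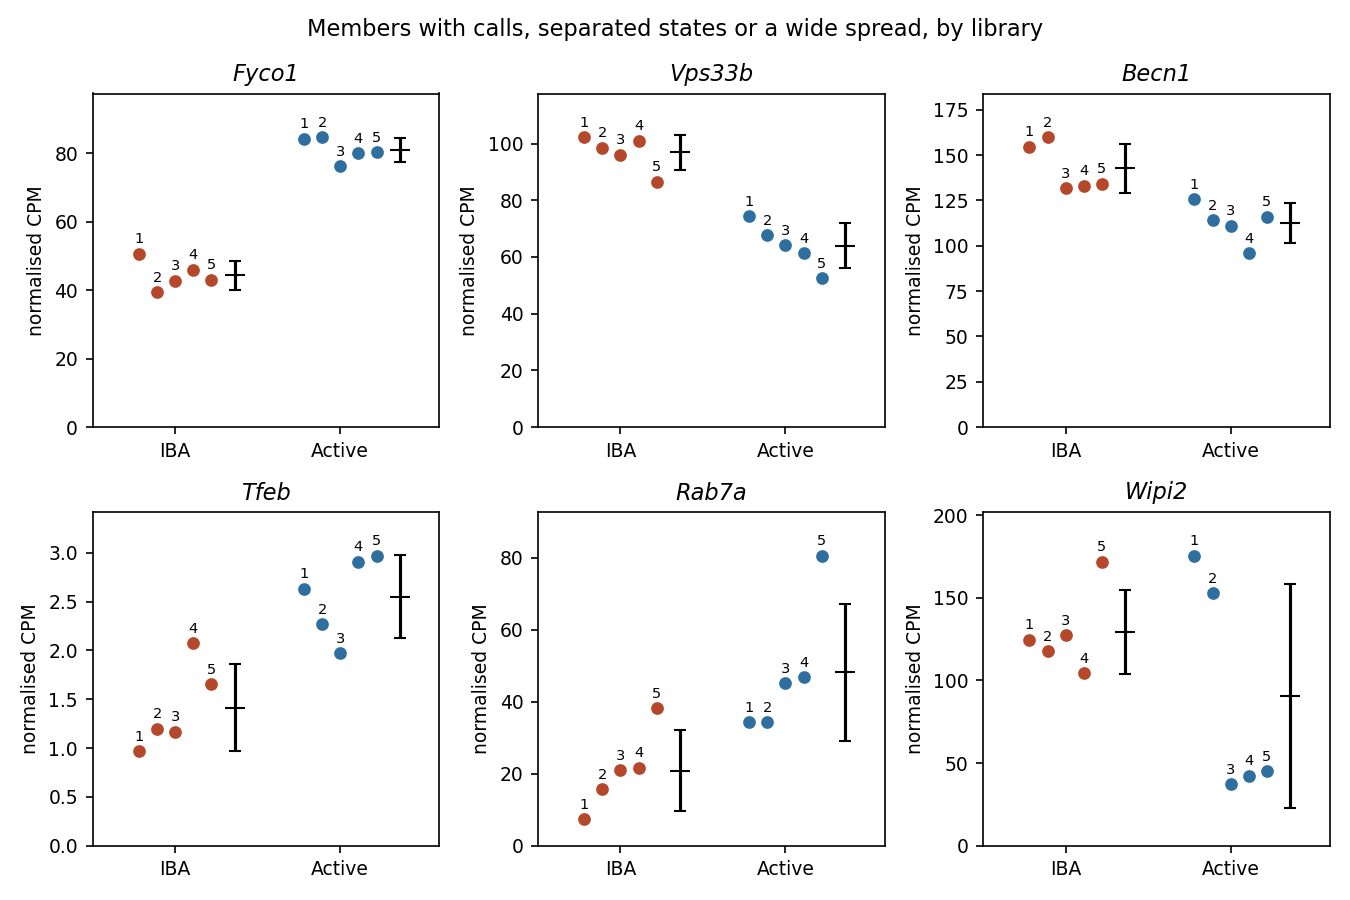
Normalised CPM of 6 members in each library, IBA left of Active, with the replicate number over each point and the mean ± SD beside them in black (n = 5 each). Fyco1, Vps33b and Becn1 have no overlap between states, Tfeb and Rab7a overlap, and Wipi2 splits within the Active libraries.

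Rab7a, the small GTPase that marks late endosomes and autophagosomes ready for fusion and to which the FYCO1 protein binds, had the largest fitted difference of all members but was not called. Its levels were 7.41, 15.7, 20.9, 21.6 and 38.2 CPM in IBA replicates 1 to 5, against 34.2, 34.2, 45.1, 46.8 and 80.6 CPM in Active replicates 1 to 5. Only IBA replicate 5 reached into the Active range. The means were 20.8 ± 11.3 CPM in IBA and 48.2 ± 19.0 CPM in Active (SD, n = 5 each), and the log2 difference was -1.30 (SE 0.36, 95% interval -2.08 to -0.52, adjusted p = 0.0801 in limma). Its log2 SD within a state was 0.83 in IBA and 0.50 in Active, while the median over members was 0.15 in IBA and 0.18 in Active. Without IBA replicate 5 the gene was called, with a difference of -1.56 (adjusted p = 0.0447 in limma). Without IBA replicate 1 the difference was -0.99 (adjusted p = 0.158). Rab7a overlaps a long noncoding RNA gene in the reference annotation, and reads shared with similar genes cannot be checked in a table of counts.

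The other transport and fusion genes had smaller fitted differences. Epg5, a tether that binds RAB7 and brings autophagosomes to lysosomes, averaged 20.3 ± 2.92 CPM in IBA and 16.9 ± 1.56 CPM in Active, a log2 difference of 0.25 (adjusted p = 0.247 in limma). Plekhm1, a RAB7 effector that joins LC3 to the fusion machinery, was at 29.1 ± 2.17 CPM in IBA and 27.5 ± 2.73 CPM in Active (difference 0.08). Stx17, the SNARE of closed autophagosomes, was at 29.9 ± 4.61 CPM in IBA and 28.8 ± 1.21 CPM in Active (difference 0.04). With Vipas39, these genes had differences from 0.04 to 0.25, and none was called.

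**Figure D3:**
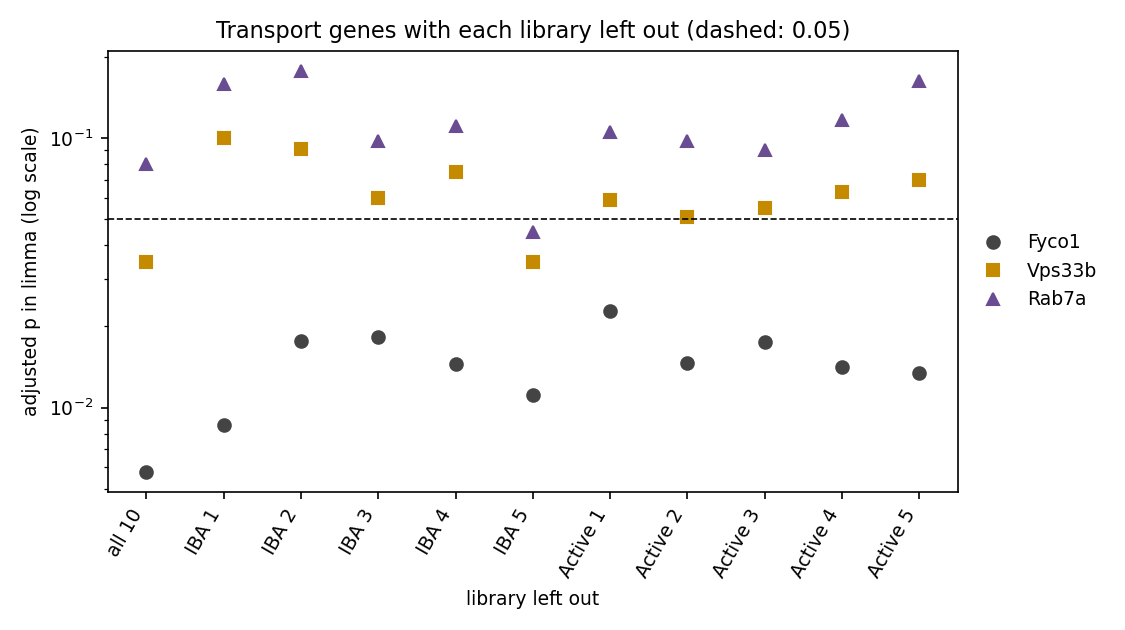
Adjusted p in limma (log scale) of Fyco1, Vps33b and Rab7a with all 10 libraries and with each library left out. Fyco1 stays under 0.05 at all 11 positions, Vps33b passes with all libraries and without IBA replicate 5, and Rab7a passes only without IBA replicate 5.

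At the start of the pathway, the induction kinase complex differed little between states. Its 5 genes are Ulk1 and Ulk2, the kinases, and Atg13, Atg101 and Rb1cc1, which hold them together. Atg13 was at 151.3, 146.2, 151.7, 152.9 and 157.3 CPM in IBA, against 165.2, 144.5, 143.8, 158.2 and 132.2 CPM in Active replicates 1 to 5. Atg101 was at 68.5, 69.4, 50.3, 56.9 and 72.8 CPM in IBA, against 53.2, 71.2, 61.5, 65.0 and 53.8 CPM in Active. The states overlapped fully for both genes. All 5 differences lay between 0.01 and 0.06 log2, and their 95% intervals together spanned -0.32 to 0.36. With library totals made equal, which also moved the median of all genes to -0.02 from 0.03, Atg101 was at -0.0015 and Atg13 at -0.0249.

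The class III PI3 kinase complex, which makes the lipid PI3P on the growing membrane, had 3 of its 6 genes at an unadjusted p under 0.05, all with higher means in IBA, and none called. Over all genes tested 23.9% had such a p, 12.7% with higher means in IBA. Becn1, its scaffold Beclin 1, was at 154.7, 160.0, 131.8, 133.1 and 134.2 CPM in IBA, against 125.7, 114.0, 111.1, 95.9 and 116.0 CPM in Active replicates 1 to 5. Its states did not overlap. The log2 difference was 0.34 (SE 0.10, 95% interval 0.13 to 0.56, adjusted p = 0.0864 in limma). Becn1 overlaps the protein-coding gene Cntd1 in the reference annotation. Cntd1 was at 0 to 0.347 CPM in IBA and 0.179 to 0.427 CPM in Active, and its part in the Becn1 result was not tested. Pik3c3, the catalytic lipid kinase, averaged 45.5 ± 3.62 CPM in IBA and 35.2 ± 5.38 CPM in Active, a difference of 0.38 (adjusted p = 0.104 in limma). Atg14, which brings the complex to autophagy sites, averaged 31.1 ± 4.71 CPM in IBA and 23.9 ± 4.56 CPM in Active, a difference of 0.38 (adjusted p = 0.156). In the reference annotation Atg14 overlaps the protein-coding gene Fbxo34. Fbxo34 was at 27.3 ± 2.85 CPM in IBA and 32.0 ± 2.80 CPM in Active, a difference of -0.22. The part of Fbxo34 in the Atg14 result was not tested. Active replicate 5 held the lowest value of both Pik3c3 and Atg14.

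The remaining 3 genes of that group were not called. Pik3r4, the regulatory subunit that pairs with the lipid kinase, had a difference of 0.01 (95% interval -0.18 to 0.21). Ambra1, a regulator of Beclin 1, had one of -0.05. Uvrag, which takes the place of Atg14 in the endosomal form of the complex, had one of -0.08 (95% interval -0.48 to 0.31), at 5.44 ± 1.05 CPM in IBA and 5.83 ± 1.45 CPM in Active.

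Only Fyco1, Vps33b and Becn1, 3 of 42 members, had values that did not overlap between states, 2 of them higher in IBA and 1 lower. Over all genes tested 6.38% did not overlap, 3.59% higher and 2.8% lower. An unadjusted p under 0.05 was found for 13 members, 31.0% of them, 7 higher and 6 lower, against 23.9% of all genes tested, 12.7% higher and 11.1% lower. That count leaned on 1 library. With only Active replicate 5 left out, 7 of 42 members and 2753 of 15445 genes had such a p in limma. Leaving out any other single library gave 10 to 15 members. An adjusted p under 0.1 was found for 6 members (Fyco1, Vps33b, Rab7a, Tfeb, Becn1 and Atg9b), against 7.74% of all genes tested. Means were higher in IBA for 28 of 42 members, against 54.1% of all genes tested.

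Genes of membrane supply and phagophore growth were split. Atg9b, a lipid scramblase carried on vesicles, was at 8.58, 8.38, 6.21, 5.12 and 6.40 CPM in IBA, against 4.09, 3.90, 5.95, 3.13 and 4.18 CPM in Active replicates 1 to 5. The states overlapped, since Active replicate 3 lay above IBA replicate 4. The log2 difference was 0.65 (95% interval 0.23 to 1.06, adjusted p = 0.0894 in limma). Atg9b overlaps Nos3, the endothelial nitric oxide synthase gene, in the reference annotation. Nos3 was at 13.6 ± 3.89 CPM in IBA and 13.1 ± 1.74 CPM in Active (SD, n = 5 each), a difference of 0.02.

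Atg9a, the other scramblase of the pair, was at 145.1, 135.3, 134.1, 104.1 and 118.9 CPM in IBA, against 122.3, 127.6, 107.2, 112.9 and 117.7 CPM in Active, a difference of 0.11 that was not called. Atg2a, a lipid transfer protein, averaged 26.6 ± 3.77 CPM in IBA and 34.9 ± 6.91 CPM in Active, a difference of -0.37 (adjusted p = 0.167 in limma), while its paralogue Atg2b had a difference of 0.04. Wipi1, a PI3P-binding protein, had one of -0.14.

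Wipi2, the PI3P-binding protein that recruits the conjugation machinery, had the largest positive difference and also the widest spread within a state. It was at 124.7, 117.7, 127.1, 104.4 and 171.7 CPM in IBA, against 175.5, 152.8, 37.1, 42.4 and 44.9 CPM in Active replicates 1 to 5. Active replicates 1 and 2 lay within or above the IBA range, and Active replicates 3, 4 and 5 lay below every IBA library. The log2 SD was 1.09 in Active and 0.26 in IBA, and the log2 difference of 0.82 had an interval at 95% from -0.07 to 1.71 (limma adjusted p = 0.241). The same library order was not shared by Wipi1, which was highest in Active replicates 4 and 5, at 29.8 and 32.3 CPM.

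**Figure D4:**
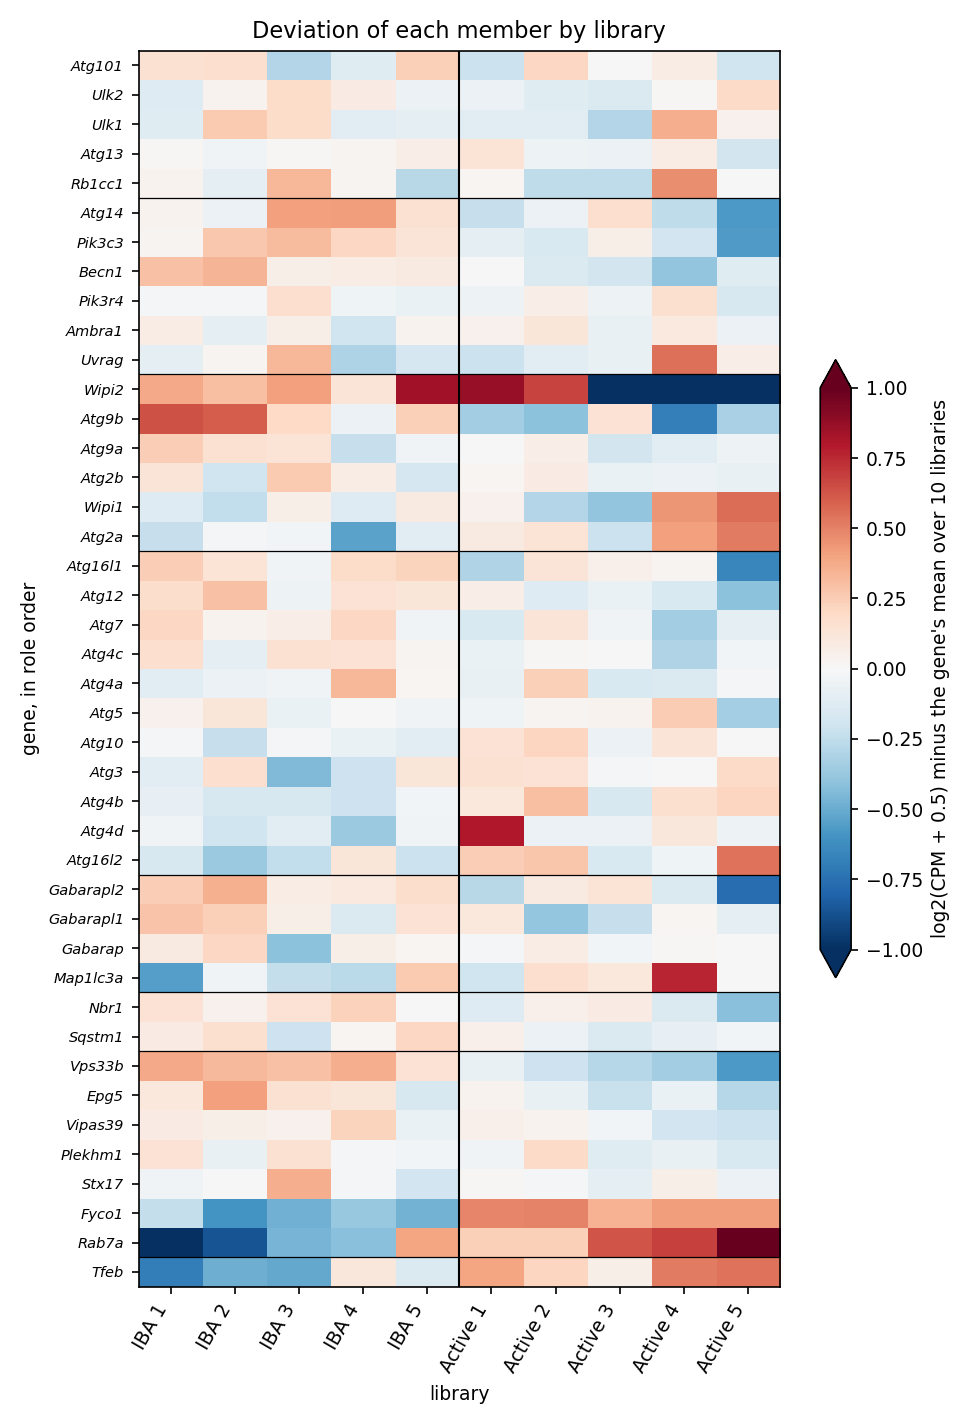
Deviation of each member from its own mean over the 10 libraries, on the log2(CPM + 0.5) scale, IBA libraries on the left, rows in role order; colours saturate at 1 in either direction. Fyco1 and Vps33b change sign at the line between states, Wipi2 changes within the Active libraries, and Active replicate 5 is the lowest library for 13 of the 42 members.

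The conjugation machinery, 11 genes, held none that was called, with 6 higher and 5 lower means in IBA. Atg12, the ubiquitin-like protein joined to ATG5, was at 87.3, 94.8, 74.5, 85.3 and 84.1 CPM in IBA, against 80.9, 70.7, 73.7, 69.4 and 57.8 CPM in Active replicates 1 to 5. Most IBA libraries were above the Active ones, with IBA replicate 3 inside the Active range. The log2 difference was 0.28 (95% interval 0.05 to 0.50, adjusted p = 0.145 in limma).

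The 4 ATG4 proteases, which trim LC3 and GABARAP proteins and release them from membranes, did not share a direction. Atg4b averaged 63.4 ± 3.25 CPM in IBA and 76.0 ± 8.85 CPM in Active, a difference of -0.25 (adjusted p = 0.153 in limma). It overlaps the protein-coding gene Thap4 in the reference annotation, whose part was not tested. Atg4c was at 109.8, 91.3, 108.9, 108.3 and 99.8 CPM in IBA, against 93.2, 98.6, 97.4, 79.5 and 95.9 CPM in Active, a difference of 0.16 (adjusted p = 0.321). Atg4a had one of 0.06 and Atg4d, at 3.42 ± 0.374 CPM in IBA and 4.45 ± 1.47 CPM in Active, one of -0.30.

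ATG16L1 and ATG16L2 both bind the ATG12 and ATG5 conjugate, and ATG16L1 places it on the growing membrane. Atg16l2 averaged 34.0 ± 4.57 CPM in IBA and 43.9 ± 8.58 CPM in Active, a difference of -0.35 (adjusted p = 0.164 in limma), while Atg16l1 had one of 0.30 (adjusted p = 0.232). Their difference from each other was not tested. Atg16l2 overlaps the protein-coding gene Fchsd2 in the reference annotation, whose part was not tested. Atg5 itself had a difference of 0.03. Atg7, the activating enzyme of both conjugation reactions, had one of 0.19. The transfer enzymes Atg3 and Atg10 had differences of -0.19 and -0.17.

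The LC3 and GABARAP proteins, which coat the autophagosome membrane and bind cargo receptors, also held no called gene. Gabarapl2 was at 307.4, 331.6, 272.3, 277.8 and 292.8 CPM in IBA, against 213.9, 275.5, 285.4, 234.7 and 152.3 CPM in Active replicates 1 to 5. Active replicates 2 and 3 lay inside the IBA range, and Active replicate 5 was the lowest. The log2 difference was 0.38 (95% interval 0.05 to 0.72, adjusted p = 0.163 in limma).

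Gabarap was at 489.0, 530.8, 345.8, 479.2 and 467.6 CPM in IBA, against 453.5, 484.1, 450.8, 464.6 and 460.7 CPM in Active. The Active libraries lay close together, inside the IBA range. The difference was -0.01 (95% interval -0.26 to 0.23), and its sign turned under other settings. Gabarapl1 had a difference of 0.23 (adjusted p = 0.258 in limma). Map1lc3a averaged 87.5 ± 18.8 CPM in IBA and 111.6 ± 31.0 CPM in Active, a difference of -0.33 (adjusted p = 0.284). Map1lc3c, under the filter, was at 0.120 to 0.504 CPM in IBA and 0.199 to 0.485 CPM in Active, near the 0.0882 to 0.132 CPM that 3 reads are worth (exact permutation test, two-sided, n = 5 each, p = 0.659, where the design allows no p below 0.00794).

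Both cargo receptors measured had slightly higher means in IBA without a call. Sqstm1, which encodes p62 and ties ubiquitinated cargo to LC3, was at 452.9, 479.0, 371.4, 435.2 and 494.3 CPM in IBA, against 443.8, 411.7, 388.1, 405.6 and 421.9 CPM in Active. The difference was 0.10 (95% interval -0.11 to 0.32). Nbr1, a receptor of like build, was at 349.6, 326.1, 350.0, 371.9 and 318.6 CPM in IBA, against 290.1, 327.8, 335.4, 286.3 and 237.1 CPM in Active, 0.23 higher on the log2 scale (interval at 95% from -0.01 to 0.46, limma adjusted p = 0.220). The states overlapped for both.

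Tfeb, a transcription factor of lysosome and autophagy genes, was at 0.970, 1.20, 1.17, 2.07 and 1.65 CPM in IBA, against 2.63, 2.27, 1.97, 2.91 and 2.97 CPM in Active replicates 1 to 5. IBA replicate 4 lay just above Active replicate 3, and the other IBA libraries lay below all Active ones. The means were 1.41 ± 0.445 CPM in IBA and 2.55 ± 0.426 CPM in Active (SD, n = 5 each), and the log2 difference was -0.69 (95% interval -1.11 to -0.27, adjusted p = 0.0819 in limma). Libraries held 30 to 96 reads of this gene, so counting error adds to its spread. Its activity is set largely by where the protein sits in the cell, which RNA levels do not show.

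Other genes of the pathway were listed by role, and 88 of the 92 listed were tested. None was called in limma or in edgeR on the recovered reads; DESeq2 on the same reads called 13, against 9.89% of all genes tested. At an unadjusted p under 0.05 there were 22, or 25.0%, 14 higher and 8 lower in IBA, against the 23.9% of all genes given above, and the median difference was 0.04.

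The related gene with the smallest p was Tfe3, a transcription factor of the same family as Tfeb. It was at 25.0, 28.3, 27.3, 29.8 and 37.8 CPM in IBA, against 43.2, 48.7, 36.3, 53.3 and 61.5 CPM in Active replicates 1 to 5. IBA replicate 5 lay above Active replicate 3, and the other libraries were apart. The log2 difference was -0.69 (SE 0.15, adjusted p = 0.0603 in limma). It was called without IBA replicate 5 (adjusted p = 0.0373) and without Active replicate 3 (adjusted p = 0.0491).

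In the remaining related groups, the genes with the smallest p were not called either. Prkag1, a subunit of the energy-sensing kinase AMPK, averaged 215.9 ± 18.2 CPM in IBA and 160.5 ± 16.1 CPM in Active, a difference of 0.43 (adjusted p = 0.0603 in limma). Bnip3l, a receptor for mitochondria, averaged 322.6 ± 32.7 CPM in IBA and 239.6 ± 32.1 CPM in Active, a difference of 0.43 (adjusted p = 0.0749). Tbc1d15, a protein that turns RAB7 off, averaged 92.5 ± 5.66 CPM in IBA and 71.8 ± 7.59 CPM in Active, a difference of 0.37 (adjusted p = 0.0749). Mtmr3, a phosphatase that acts on PI3P, had a difference of -0.79 (adjusted p = 0.0767), and Dync1i2, a chain of the motor dynein, one of 0.33 (adjusted p = 0.103).

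The median deviation of the 42 members from their own means was 0.01 to 0.06 log2 in IBA and -0.06 to 0.06 log2 in Active libraries. Active replicate 5 was the lowest of the 10 libraries for 31.0% of members and for 19.5% of all genes tested. The median log2 SD within a state was 0.15 in IBA and 0.18 in Active for members, against 0.23 in IBA and 0.25 in Active for all genes tested. Members and all genes were not matched for level, so the lower spread is not read as a trait of the members.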

How the data were processed

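RNA from 5 IBA and 5 Active subfornical organs was analysed. Titles gave the groups and replicate numbers. The submitters' processing notes list STAR 2.7.7a, Trimmomatic 0.39, Subread 2.0.1 with featureCounts, R 4.2.1 and edgeR 3.38.4. Build, annotation and strand are not given in the sources used here. As named per the file headers, the authors deposited CPM per library, a scaled signal whose column sums differ, with a log2 fold change (coded Active minus IBA), an average log2 CPM, an F statistic (a score) and p-values with FDR.

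All values (100%) were whole numbers of reads to within 0.01 of a read after rescaling. Genes averaging 1 CPM or more were fitted with limma 3.58.1 (R 4.3.3) on log2(CPM + 0.5). The variance prior followed an intensity trend, there were no covariates, tests were two-sided and p-values were adjusted by Benjamini-Hochberg. Alternatives included edgeR 4.0.16 and DESeq2 1.42.0 on the recovered reads. Scripts were tested on simulated data, with 200 genes changed. The limma fit recovered 5.0% of 1.5-fold changes and 65.5% of 2-fold changes there. A missing call at such sizes therefore does not show equal levels. The members and lists were chosen with earlier results of these data known. The text names every member. It gives values in each library for called members and, per role, for the member with the smallest p and the one with the highest mean. Rab7a, Wipi2 and Tfe3 were also shown so, after their values were seen. All 43 symbols matched the RefSeq list of mIctTri1.hap1 once, and 20 overlap another gene there. The text names only some of these overlaps. That assembly was used for names and neighbours only.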

Additional observations from a re-analysis of the deposited data

Results flagged for a closer look

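In each state, the highest or lowest of the 5 libraries was compared with its nearest neighbour, relative to the state's whole range. Of 84 groups checked, 42 members in 2 states, 5 had a library that stood apart, and chance gives about 1 in 20 groups. Atg4a was at 43.7 CPM in IBA replicate 4, against 32.2 to 35.2 CPM in the other IBA libraries. Pik3r4 was at 134.3 CPM in IBA replicate 3, against 114.0 to 118.3 CPM in the others. Atg4d was at 7.04 CPM in Active replicate 1, against 3.66 to 4.19 CPM in the other Active libraries, and in the reference annotation it overlaps Kri1 and Cdkn2d. Atg4c was at 79.5 CPM in Active replicate 4, against 93.2 to 98.6 CPM in the others. Rab7a was at 80.6 CPM in Active replicate 5, against 34.2 to 46.8 CPM in the others, and without that library its log2 difference was -1.10 (adjusted p = 0.163 in limma).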

How the results depend on the processing

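Over 23 alternative settings, Fyco1 kept its direction in all and its call in 22, and Vps33b kept its direction in all and its call in 11. With no filter, 0 members were called higher (Vps33b adjusted p = 0.0638 in limma) and 6 genes in all, and without the trend 0 members were higher (Vps33b adjusted p = 0.0544). Sample weights gave 121 genes. When library totals were made equal, the median log2 difference was -0.0117 for members and -0.02 for all genes (0.05 and 0.03 as reported), Atg101 was at -0.0015 and Atg13 at -0.0249. Atg13 was also at -0.0052 in edgeR, -0.0020 in DESeq2 and from -0.0076 (without Active replicate 5) to 0.0723 with 1 library left out. Gabarap was at 0.0189 with sample weights and from -0.0681 to 0.0862 with 1 library left out, positive without IBA replicate 3 (0.0862) and Active replicate 2 (0.0016). DESeq2 called 3 members higher and 4 lower (Fyco1, Vps33b, Becn1, Atg9b, Rab7a, Tfeb and Atg4b), 13 related genes and 1527 genes, 9.89% of those tested. Without Active replicates 4 and 5 together, limma called 0 genes, 0 members higher, 0 lower and 0 related genes, with 2173 genes and 7 members at an unadjusted p under 0.05. With 1 library left out, the counts ran from 0 to 1 member higher, 1 to 2 lower, 4 to 245 genes and 0 to 1 related gene, and the members' median from 0.03 to 0.07. The titles number the replicates without saying whether numbers pair the samples. Same-numbered libraries had correlations of -0.17 to 0.20, and 2 of 5 IBA libraries correlated best with their own number. So few weak correlations cannot decide whether numbers mark a shared order. Rab7a rose with replicate number in both states. Vps33b and Vipas39 fell at each step of replicate number in Active, though not at each step in IBA. These orders were seen after the values and were not tested. With the replicate block, 2 members were called lower (Fyco1, and Rab7a at an adjusted p of 0.0380), 1 related gene (Tfe3) and 231 genes. The cause of these moves was not tested. Tfeb had no value with a mean of at least 2 CPM.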

Other observations

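The split of Wipi2 within the Active libraries was set against the same split of these libraries in all genes tested. The lower of Active replicates 1 and 2 was 3.40 times the highest of Active replicates 3, 4 and 5. Of 15445 genes tested, 2, Wipi2 among them, had a gap as large between these same libraries. In 1 of the 2, Wipi2 itself, all IBA libraries also lay above Active replicates 3, 4 and 5. The libraries and the gap were taken from Wipi2 after its values were seen. The count therefore does not show how rare splits of this size are within a state.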
